A study of Mus musculus with 6 samples.

Results

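The leukocyte integrins are integrin subunits carried mainly by white blood cells, and 6 of their genes were followed here: Itgb2, Itgam, Itgal, Itgax, Itga4 and Itgb7. The members were chosen by gene symbol, each through a probe set with exactly 1 symbol, and all 6 were measured, each by 1 probe set, among 22180 named genes on the arrays. The arrays were Affymetrix Mouse Gene 2.0 ST arrays of total RNA from cultured myoepithelial cells, the contractile cells that wrap the secretory units of the exorbital lacrimal gland. Cells of 1 group came from TSP1 null female mice, which lack thrombospondin-1 and serve in this series as a model of dry eye disease (3 arrays), and those of the other from wild type C57BL/6J female mice (3 arrays). The null group's strain is labelled only as TSP1 null, so its background strain and the age of the mice in either group are unknown here. The cells of both groups were released from minced glands with collagenase, kept untreated in medium with serum over roughly 2 to 3 weeks, and not sorted as far as the labels say, so that other cells of the gland could be carried along.

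Integrins are pairs of an alpha and a beta chain that hold cells to matrix or to other cells. The beta2 chain, encoded by Itgb2, pairs with alphaL (Itgal, giving LFA-1), alphaM (Itgam, giving Mac-1 or CD11b/CD18) and alphaX (Itgax, giving CD11c/CD18), and these receptors let leukocytes grip ICAM proteins on vessel walls and take up particles coated with complement. The alpha4 chain (Itga4) pairs with beta1 to bind VCAM-1 and fibronectin, or with beta7 (Itgb7) to bind MAdCAM-1, the addressin of gut vessels. Alpha4beta1 is also one of the receptors described for thrombospondin-1. CD11b is a common marker of macrophages, monocytes and neutrophils, CD11c of dendritic cells and some macrophages, and LFA-1 is found on nearly all leukocytes.

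The authors deposited 41345 log2 signals per array, normalized across arrays, and the array medians were 5.25 to 5.32. Signals are on a log2 scale, so a difference of 1 is a doubling, and differences are given throughout as TSP1 null minus wild type. The precision is limited by the number of arrays. Every sample title carries the words biological replicate and a number, but the labels do not say whether these came from separate animals. The p-values reflect the scatter among these arrays, and how far it stands for the scatter among animals is unknown here. Thbs1, the gene lost in the null mice, read 12.73, 13.03 and 13.00 on the null arrays and 13.51, 13.75 and 13.54 on the wild-type arrays. It remained bright on all null arrays, and the position of its probes against the deletion is unknown here, which makes it a weak check of the labels. Acta2, the smooth muscle actin that marks myoepithelial cells, was bright on all arrays (13.85 to 14.01), whereas Trp63, the transcription factor of basal epithelium, read only 4.47 to 4.93, below the array medians. The mean level of 10 fibroblast markers was 9.65 to 10.28 on the null and 9.37 to 10.61 on the wild-type arrays. That of 9 myoepithelial markers, Acta2 among them, was 9.02 to 9.33 and 8.83 to 8.96. Among these, the keratins Krt14 (4.93 to 6.35) and Krt17 (4.71 to 6.10) read far below Acta2. The share of each cell type in the cultures was not tested.

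White blood cell markers were not evenly spread over the arrays. The myeloid content of an array is used here for the mean of 20 macrophage and monocyte markers, none of them an integrin, each centred on its mean over the 6 arrays. On this scale it was -0.37, 0.31 and -2.06 on null arrays 1, 2 and 3 and 0.19, 0.90 and 1.03 on the wild-type arrays. The third null array was far below the other 5, the second null array was above the first wild-type array, and the groups overlapped. The difference between the groups was -1.41 (SE 0.75, n = 3 per group), with an exact permutation p of 0.2, two-sided, where 0.1 is the smallest that 3 arrays against 3 can give. Without the third null array it was -0.74. All 20 markers had lower means in the null group, and the mean log2 level of the list ran from 7.30 to 9.66 on the null and from 9.54 to 10.38 on the wild-type arrays. Fewer myeloid cells and less RNA per cell cannot be told apart in such bulk samples.

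Itgb2 encodes the beta chain that the 3 CD11 chains followed here need to reach the cell surface. Its log2 signals were 8.55, 9.69 and 6.67 on the null arrays and 9.18, 10.31 and 10.38 on the wild-type arrays. The third null array was lowest by a wide margin, and the second null array lay above the first wild-type array, so the groups overlapped. The means were 8.31 ± 1.53 and 9.96 ± 0.67 (SD, n = 3), a difference of -1.65 (SE 0.70, 95% interval -3.29 to -0.02). That is 3.14-fold lower in the null group, the largest difference among the 6 genes, with an unadjusted p of 0.0483 and an adjusted p of 0.468 over all genes. Without the third null array the difference was -0.83. From the lowest to the highest array Itgb2 spanned 3.71 log2 units, or 13.1-fold, of which 3.02 lay within the null group alone.

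Itgam encodes alphaM, which binds complement fragment iC3b, fibrinogen and ICAM-1. It read 8.51, 9.53 and 6.75 on the null arrays and 9.12, 9.64 and 10.04 on the wild-type arrays. The order of the 6 arrays was the same as for Itgb2. The means were 8.26 ± 1.40 and 9.60 ± 0.46 (SD, n = 3), and the difference of -1.34 (SE 0.63, 95% interval -2.79 to 0.12) did not pass (adjusted p = 0.509). It was -0.58 without the third null array.

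Itgal encodes alphaL, the partner of beta2 in LFA-1. Its signals were 6.48, 6.92 and 5.79 on the null arrays and 6.33, 8.41 and 8.60 on the wild-type arrays. Here the split ran inside the wild-type group: the first wild-type array was below 2 of the 3 null arrays, and the other 2 wild-type arrays stood above all the rest. The first wild-type array lay 2.17 log2 units below the mean of those 2, while for Itgam it lay 0.72 and for Itgb2 1.16 below them. The difference between the groups was -1.38 (SE 0.58, adjusted p = 0.465), and it was -2.10 (SE 0.30, adjusted p = 0.112) without the first wild-type array. That array also had the highest fibroblast marker level of the 6 (0.74 above the mean of its 10 markers, against -0.51 and -0.27 on the other wild-type arrays). Its endothelial marker level was -0.19, against 0.48 and 0.18 on those arrays, and its luminal epithelial level -0.36, against 0.03 and -0.07. The part of these in the Itgal value was not tested.

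Itgax encodes alphaX. It read 5.95, 6.68 and 5.08 on the null arrays and 5.43, 6.49 and 6.28 on the wild-type arrays. The second null array was the highest of all 6 and the first wild-type array the second lowest. The means of 5.90 ± 0.80 and 6.07 ± 0.56 (SD, n = 3) differed by -0.17 (SE 0.42, 95% interval -1.14 to 0.81, adjusted p = 0.923), less than the spread within either group. This difference turned to 0.24 without the third null array and to 0.044 without the second wild-type array. Its lowest signals were near the array medians.

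Itga4, the alpha4 chain, was the member whose groups did not overlap. It read 7.06, 7.65 and 6.20 on the null arrays and 7.89, 8.50 and 8.79 on the wild-type arrays. Every null array was below every wild-type array. The means were 6.97 ± 0.73 and 8.39 ± 0.46 (SD, n = 3). The difference of -1.42 (SE 0.37, 95% interval -2.29 to -0.56), 2.68-fold lower in the null group, had the smallest p of the 6 (unadjusted p = 0.00558), and its adjusted p of 0.321 did not pass. It ran from -1.76 to -1.04 when each array was left out in turn.

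Itgb7, the partner of alpha4 on gut-homing lymphocytes, was flat. It read 5.29, 5.19 and 5.34 on the null arrays and 5.26, 5.24 and 5.24 on the wild-type arrays, all close to the array medians. The whole span was 0.14 log2 units, and the difference was 0.03 (SE 0.10, 95% interval -0.20 to 0.27, adjusted p = 0.944).

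**Figure D1:**
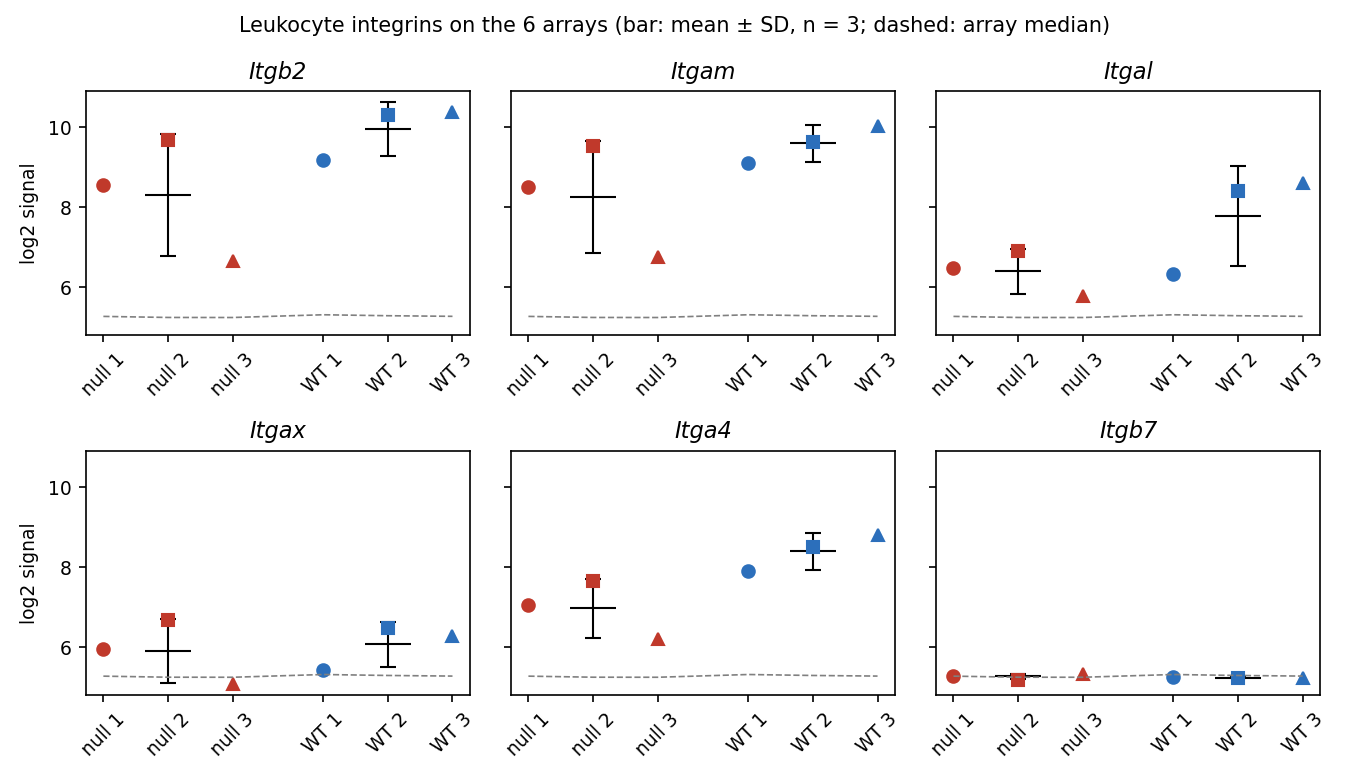
Log2 signals of the 6 leukocyte integrin genes (vertical axis) on each TSP1 null (red) and wild-type (blue, WT) array, with black bars for the group mean ± SD (n = 3) and a dashed line for the array median. The third null array is lowest for every gene but Itgb7, Itgal splits the wild-type group, and Itgb7 stays at the array median.

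As a group, 5 of the 6 genes had lower means in the null group, as did 44.9% of all 22180 genes. None of the 6 passed an adjusted p of 0.05 with limma, and neither did any other gene (0 called, 0.0%). At an unadjusted p under 0.05 there were 3 of the 6, namely Itgb2, Itgal and Itga4, all lower, against 948 lower genes (4.27%) in all and 2341 (10.6%) in either direction. That count of 3 ran from 1 to 4 over 15 other settings of this fit, and in 7 of them Itga4 was the only one, for example without the first null array, where the unadjusted p was 0.0904 for Itgal and 0.0803 for Itgb2. It was likewise 1 without the third null, the second wild-type or the third wild-type array. Groups that did not overlap, with the null arrays lower, were seen for 1 of the 6 (Itga4) and for 5.75% of all genes, or 15.8% in either direction. Without the second null array 34 genes (0.153%) passed the adjusted threshold, and 1 gene (0.00451%) did when the first wild-type array was left out, with 0 of the 6 among them. The median difference of the 6 was -1.36, and that of all genes 0.02.

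The pattern over the 6 arrays was then set beside the myeloid content of each array. Itgb2 and Itgam followed it array by array. For Itgb2 Pearson's r was 1.00 (exact permutation p = 0.00139, the smallest that 720 orderings can give, and 0.00417 adjusted over the 6 genes) and Spearman's rank coefficient was 1.00 (exact p = 0.00278, adjusted 0.00833). For Itgam r was 0.99 (exact permutation p = 0.00139, adjusted 0.00417) with a rank coefficient of 1.00 (exact p = 0.00278, adjusted 0.00833). The least-squares slope, in log2 units of the gene per log2 unit of content, was 1.04 for Itgam and 1.23 for Itgb2. Without the arrays farthest from the median content, which are the third null and the third wild-type array, r was 0.98 for Itgb2 and 0.92 for Itgam. Both genes kept to the content within the groups as well, with r of 0.99 each for deviations from the group means.

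Itga4 followed the content nearly as closely. Its r was 0.97 (exact permutation p = 0.00278, adjusted 0.00556) and its rank coefficient 0.94 (exact p = 0.0167, adjusted 0.025), with a slope of 0.81, and r stayed at 0.97 without the 2 farthest arrays. Around the fitted line the first and second null arrays lay 0.32 and 0.28 below, while the third null array (0.19) and the 3 wild-type arrays (0.05, 0.09 and 0.27) lay above.

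Itgal and Itgax were looser. For Itgal r was 0.83 (exact permutation p = 0.0208, adjusted 0.0312) and the rank coefficient 0.94 (exact p = 0.0167, adjusted 0.025). The first wild-type array fell 0.92 below its line and the second and the third lay 0.55 and 0.63 above it, so the scatter around the line (SD 0.71) was wide beside that of Itgb2 (0.15) and Itgam (0.18). Itgax had an r of 0.78 (exact permutation p = 0.0528, adjusted 0.0528) and a rank coefficient of 0.71 (exact p = 0.136, adjusted 0.136), and its slope of 0.43 was shallow. Its r was 0.48 without the 2 farthest arrays. It was 0.46 without the third null array alone and 0.78 without the third wild-type array alone, so the pooled relation of Itgax rests on the third null array. For deviations from the group means it was 0.94.

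Itgb7 gave an r of -0.84 (exact permutation p = 0.0389, adjusted 0.0467) over its span of 0.14 log2 units, with a slope of -0.04 and a rank coefficient of -0.83 (exact p = 0.0583, adjusted 0.07). Without the 2 farthest arrays r was -0.59. For reading these coefficients, 1111 of all genes had an SD of at least 0.5 over the 6 arrays, and 24.1% of them had an r of 0.9 or more with the myeloid content. Array number is small and the third null array carries much of the range, so r describes these 6 arrays.

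**Figure D2:**
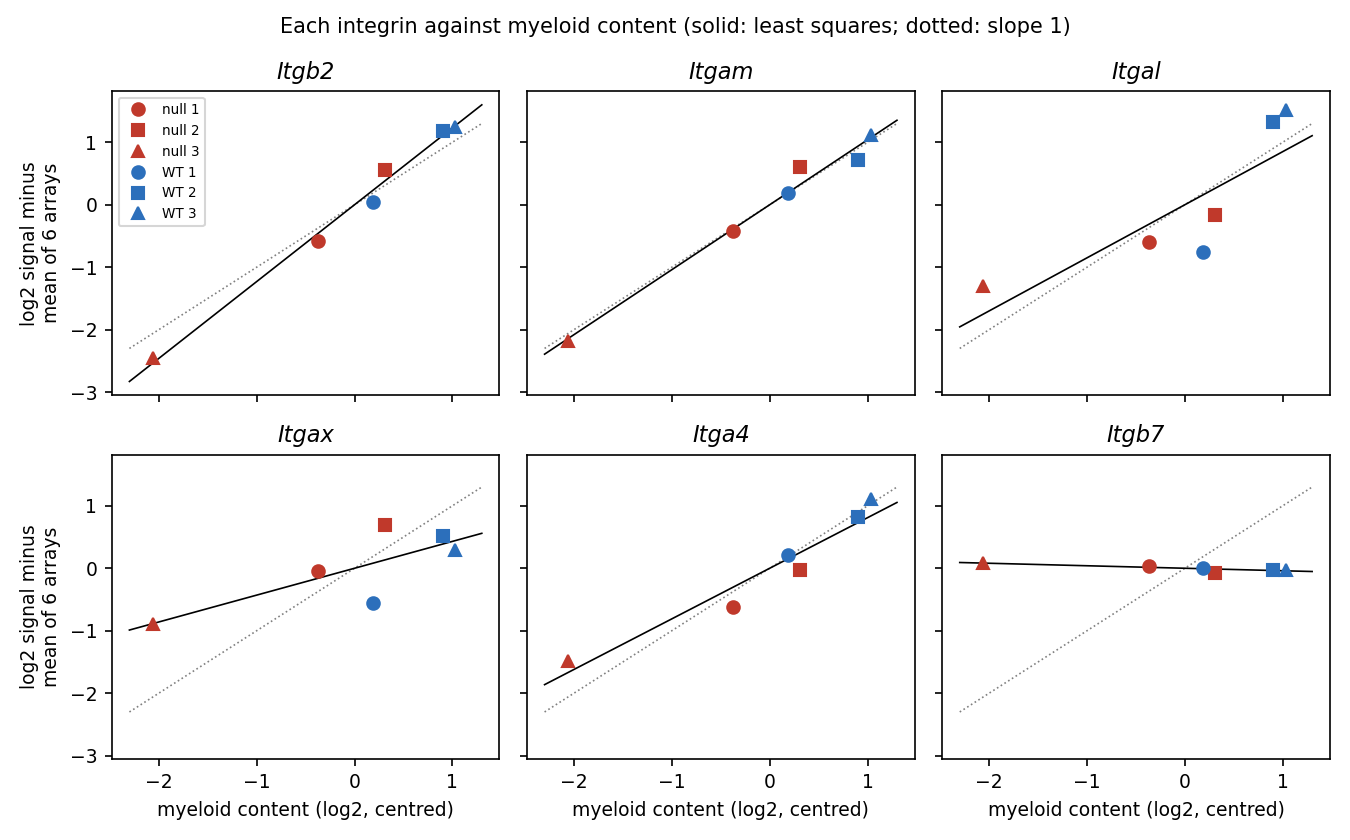
Each gene's log2 signal minus its mean over the 6 arrays (vertical axis) against the myeloid content of the array (horizontal axis, mean of 20 centred markers, log2), with the least-squares line (solid) and a line of slope 1 (dotted). Itgb2 and Itgam lie on or near the dotted line, the first wild-type array falls below the line for Itgal and Itgax, and Itgb7 is level.

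With the myeloid content of each array as a covariate in the limma fit over all genes, the group differences of the beta2 genes shrank or turned. Itgb2 had a difference of 0.15 (SE 0.19, 95% interval -0.29 to 0.59) and Itgam of 0.26 (SE 0.19, 95% interval -0.19 to 0.70), where both had been below -1.3. Without the second null array they were -0.05 and -0.0012. The difference of Itgal was -0.33 with a wide interval (SE 0.60, -1.75 to 1.09). It depended on single arrays, from -1.32 without the first wild-type array to 0.16 without the second and 0.40 without the third null array.

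For Itga4 the difference at equal content was -0.51 (SE 0.19, 95% interval -0.97 to -0.06, unadjusted p = 0.0324, adjusted p = 0.801), and it ran from -0.68 to -0.33 when each array was left out (-0.33 without the third null array). Itgax went the other way. Its difference became 0.83 (SE 0.24, 95% interval 0.26 to 1.41, unadjusted p = 0.011, adjusted p = 0.801), and it ran from 0.58 to 1.08 over the same fits. Centred Itgax signals minus the content were 0.33, 0.39 and 1.15 on the null arrays and -0.74, -0.39 and -0.73 on those of wild type. There was no overlap by this measure, which assumes a slope of 1. Residuals from the fitted line, whose slope was 0.43, did overlap, at 0.12, 0.56 and -0.02 on the null and -0.63, 0.12 and -0.15 on those of wild type. Itgb7 had a difference of -0.04 (SE 0.15). Of all genes, 6.03% had an unadjusted p under 0.05 in this fit and 0.0% passed the adjusted threshold, against 2 and 0 of the 6. With each array left out that count of 2 ran from 0, without the second null array, to 3, without the first wild-type array, and was 1 in the other 4 fits. The unadjusted p of Itga4 was then 0.0507 to 0.142 in 5 of the 6 fits, and that of Itgax rose to 0.122 without the second null array. Whether Itgax and Itga4 differ from each other at equal content was not tested.

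**Figure D3:**
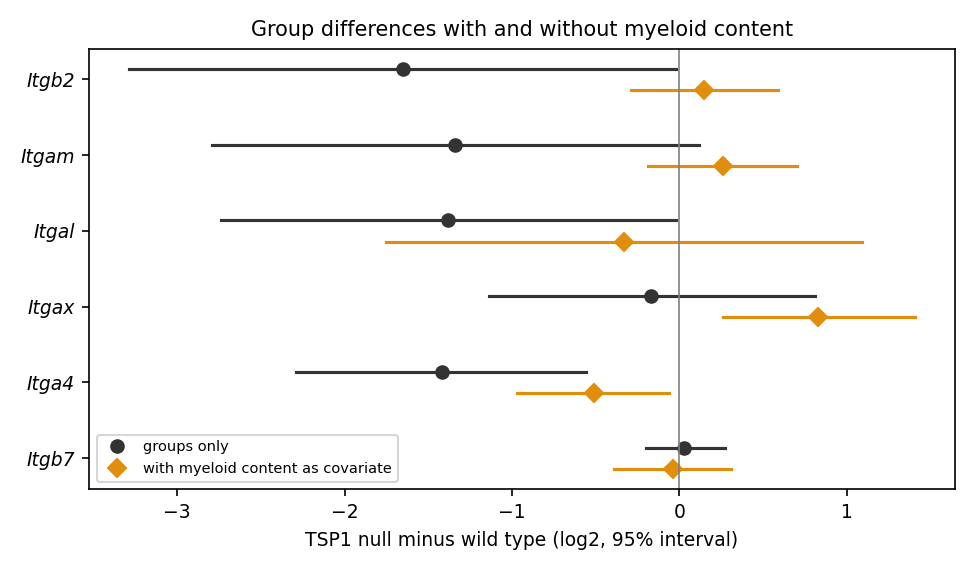
Difference between TSP1 null and wild type in log2 units (horizontal axis) with its 95% interval for each gene, from the fit on the groups only (black) and with myeloid content as a covariate (orange). Itgb2 and Itgam move from -1.65 and -1.34 to 0.15 and 0.26, Itga4 from -1.42 to -0.51, and Itgax from -0.17 to 0.83.

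The genes most like each member were found by Pearson's r over the 6 arrays among the 1111 genes with an SD of at least 0.5. Nearest to Itgb2 were Arhgap30, a GTPase-activating protein, with r = 0.999, then Fmnl1, a formin of leukocytes, and Tnfaip8l2 (r = 0.998 and 0.997). Nearest to Itgam were Pik3ap1, an adaptor that links receptors to phosphoinositide 3-kinase, C3ar1, the receptor for complement fragment C3a, and Cyth4, each with r = 0.996. Itga4 was most like Atp8b4 (0.997), Pik3r5, a regulatory subunit of phosphoinositide 3-kinase gamma (0.997), and AB124611 (0.996). Among the 50 genes nearest to Itgam were 8 of the 20 myeloid markers, 6 of the 12 pan-leukocyte markers, and Itgb2. Among the 50 nearest to Itgb2 were 7 and 3 of them, and Itgam. Markers with an SD under 0.5, such as Cd163, were not candidates and could not be counted. Of the 1111 candidates, 268 (24.1%) had an r of 0.9 or more with the myeloid content. The 50 places could not hold all of these.

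The neighbours of Itgal, Itgax and Itga4 held fewer of the markers than those of Itgam and Itgb2. Those of Itga4 held 2 of the 20 and 2 of the 12. The share of markers that 50 of the 1111 candidates would hold regardless of pattern was not computed, so no count is called low. Itgal was most like Apoc2, an apolipoprotein that activates lipoprotein lipase (r = 0.994), Slc17a9, the vesicular nucleotide transporter (0.990), and Sirpb1a, a signal-regulatory protein of myeloid cells (0.990). Sirpb1a read 5.43, 5.65 and 5.07 on the null arrays and 5.46, 7.28 and 7.41 on the wild-type arrays, with the first wild-type array again at the level of the null arrays. The 50 nearest genes of Itgal held 1 of the 20 myeloid markers and those of Itgax 2. Itgax was most like Pdgfb, a growth factor chain (r = 0.970), Il21r, a cytokine receptor (0.941), and Tnfrsf26 (0.930). Itgal and Itgax had an r of 0.73 with each other, whereas Itgb2 and Itgam had 0.99.

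RefSeq promoter sequences (GRCm38.p6) were found for 4 of the 6 genes and are shown because Itgam and Itga4 followed the myeloid content, Itgax did so loosely and Itgb7 had nearly level signals. Each is the 120 bases before the gene's start, 5′ to 3′ on the gene's strand, with capitals for matches on either strand to GAGGAA (the core bound by PU.1, a myeloid transcription factor), TGTGGT (bound by RUNX factors), GGGCGG, which is the GC box of many promoters, and the TATA box TATAAA. They lie at chr7:128062520-128062639 (plus strand) for Itgam, chr2:79255306-79255425 (plus) for Itga4, chr7:128129430-128129549 (plus) for Itgax and chr15:102231936-102232055 (minus) for Itgb7.
Itgam: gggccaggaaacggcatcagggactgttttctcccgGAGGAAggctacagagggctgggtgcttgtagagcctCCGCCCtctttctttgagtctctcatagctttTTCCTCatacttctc
Itga4: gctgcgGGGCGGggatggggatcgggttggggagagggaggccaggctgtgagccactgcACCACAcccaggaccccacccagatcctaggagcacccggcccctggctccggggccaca
Itgax: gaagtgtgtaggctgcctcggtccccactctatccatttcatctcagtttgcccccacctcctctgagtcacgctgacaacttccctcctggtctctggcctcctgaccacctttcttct
Itgb7: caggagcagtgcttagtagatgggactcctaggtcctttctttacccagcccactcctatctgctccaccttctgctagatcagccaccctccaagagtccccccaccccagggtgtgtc
The Itgam window held GAGGAA starting 84 bases before the start and, on the opposite strand (TTCCTC), 15 bases before it, together with a GC box on the opposite strand. The Itga4 window held a GC box and, on the opposite strand, a RUNX match. No match to the 4 motifs was found in the windows of Itgax and Itgb7. Of 32851 promoter windows of the same length, 11.6% held GAGGAA, 6.72% TGTGGT, 26.5% the GC box and 6.34% the TATA box, and the motifs do not overlap each other in the 4 windows. These matches describe the sequence only.

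Spi1, which encodes PU.1, read 7.81, 8.35 and 5.97 on the null arrays and 8.56, 9.29 and 9.25 on the wild-type arrays, again lowest on the third of the null arrays. Its difference was -1.66 (SE 0.56, adjusted p = 0.391), and its r with the myeloid content was 1.00. Of the 10 measured transcription factors listed for these genes, 5 had higher and 5 lower means, the median difference was -0.04, and 0 passed. Cebpb, a C/EBP factor of inflammation and differentiation, had the smallest p at 0.41 (SE 0.13, adjusted p = 0.384). Irf8, a factor of monocytes and dendritic cells, had -0.77 (SE 0.41). Runx1 differed by 0.01 (SE 0.17).

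The other integrin subunits, most of which serve adhesion to matrix, did not follow the myeloid content as closely as Itgb2, Itgam and Itga4. Of 19 measured, 15 had higher and 4 lower means in the null group, 0 passed, and their median difference was 0.13. None of the 19 had an r of 0.9 or more with the myeloid content, and their values ran from -0.64 to 0.83. The highest, 0.83, belonged to Itga6, a laminin receptor chain, and equalled that of Itgal. Several of the list were nearly level, such as Itgad (span 0.34) and Itgae (span 0.24). The lists were not filtered by SD, unlike the genes behind the 24.1% given above, so their counts have no matching share. The alternative partners of the members differed little. Itgb1, the common partner of alpha4, read 12.35, 12.55 and 12.51 on the null and 12.20, 12.40 and 12.41 on the wild-type arrays. Itgad, a further alpha partner of beta2, differed by 0.04 (SE 0.14) and Itgae, the alphaE partner of beta7, by 0.03 (SE 0.11), both at signals below the array median. The smallest p of the list belonged to Itga11, a collagen receptor of fibroblasts and other mesenchymal cells, at 1.42 (SE 0.25, adjusted p = 0.213), followed by Itga7, a laminin receptor, at 0.27 (SE 0.13) and Itga3 at 0.56 (SE 0.29).

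Ligands of the leukocyte integrins were near even, with 11 of 18 measured genes higher, 7 lower, 0 passing and a median difference of 0.06. Vcam1, which alpha4beta1 binds, read 11.39, 11.84 and 11.70 on the null and 11.86, 11.68 and 11.45 on the wild-type arrays, a difference of -0.02 (SE 0.16). Icam1, the main ligand of LFA-1 and Mac-1, had -0.40 (SE 0.20), and Icam2, its relative on endothelium, -0.51 (SE 0.17, adjusted p = 0.391). Jam2, a junction molecule that alpha4beta1 binds, had -0.63 (SE 0.23, adjusted p = 0.424). Madcam1, the ligand of alpha4beta7, differed by -0.10 (SE 0.13) at signals near the array median. Thbs1 itself had the smallest p of this list, at -0.68 (SE 0.13, adjusted p = 0.25).

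Of the genes that switch integrins on from inside the cell, 4 of 13 had higher and 9 lower means, 0 passed, and the median was -0.06. An r of 0.9 or more with the myeloid content was found for 3 of the 13. Fyb, an adaptor of leukocyte adhesion, had an r of 0.98 and a difference of -1.84 (SE 0.53, adjusted p = 0.339). Fermt3, the kindlin of blood cells, also had an r of 0.98, with a difference of -0.96 (SE 0.40). The third was Skap2, an adaptor that works with Fyb, at an r of 0.94. Apbb1ip, the adaptor RIAM that joins Rap1 to talin, differed in another way. It read 9.89, 9.90 and 9.93 on the null arrays and 10.28, 10.22 and 10.37 on those of wild type. It was not low on the third null array. Its difference was -0.39 (SE 0.10, adjusted p = 0.324), and -0.40 (SE 0.15) with the content as a covariate. Tln1, talin itself, had 0.36 (SE 0.14). Among 6 genes that restrain integrins 4 had higher means, 0 passed and the median was 0.22, with Flna, an actin crosslinker that competes with talin, at 0.42 (SE 0.12), Dok1 at 0.51 (SE 0.20) and Sharpin at -0.18 (SE 0.11).

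Signalling genes that act downstream of engaged beta2 integrins had differences like those of the members. Of 10 measured, 9 had lower means in the null group, 0 passed, the median was -1.11, and 7 had an r of 0.9 or more with the myeloid content. Lcp2, the adaptor SLP-76, read 9.12, 9.57 and 7.58 on the null and 10.08, 10.45 and 10.47 on the wild-type arrays, a difference of -1.58 (SE 0.46, adjusted p = 0.343) without overlap. Vav3, a guanine nucleotide exchange factor, had -1.16 (SE 0.35), and Tyrobp, an adaptor with an activating motif, -1.71 (SE 0.61, adjusted p = 0.404). These lists describe genes that myeloid cells express, so their shared direction with the members is not separate evidence.

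**Figure D4:**
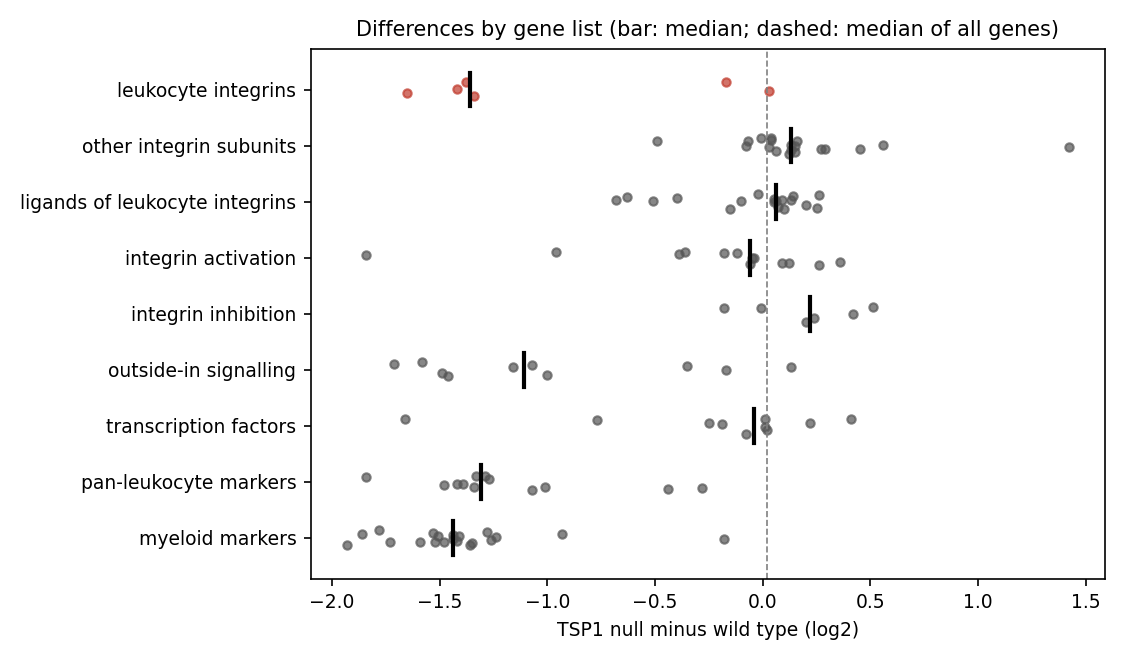
Difference between TSP1 null and wild type in log2 units (horizontal axis) for every measured gene of the leukocyte integrins (red) and of 8 other lists (grey), with a bar at each list's median and a dashed line at the median of all genes (0.02). Medians lie at -1.36 for the leukocyte integrins, -1.11 for outside-in signalling, -1.31 for pan-leukocyte and -1.44 for myeloid markers, and between -0.06 and 0.22 for the remaining 5 lists.

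Markers of the leukocytes that could carry these integrins were compared on the same arrays. The 12 pan-leukocyte markers, such as Ikzf1 (-1.01, SE 0.30) and Was (-1.48, SE 0.46), all had lower means in the null group, with 0 passing, a median of -1.31 and an r of 0.9 or more with the myeloid content for 11 of 12. The myeloid markers of smallest p were Mertk (-1.35, SE 0.42) and Msr1 (-1.78, SE 0.63). T and NK cell markers had a median of -0.11, 8 of 11 lower, and mean list levels of 4.46 to 4.64 on the null and 4.70 to 4.74 on the wild-type arrays, all below the array medians. Cd3d, of the T cell receptor complex, read 4.61, 4.75 and 4.87 on the null and 4.82, 4.74 and 5.14 on the wild-type arrays. Cd3e, of the same complex, read 4.88, 4.56 and 4.44 against 4.90, 5.04 and 4.85 (difference -0.31, SE 0.14, adjusted p = 0.507), and Cd3g ran from 3.98 to 4.22. The T and NK genes of smallest p were Cd28 (-0.60, SE 0.22) and Cd4 (-0.47, SE 0.18). Unlike the list level, Cd28 read 5.89 to 6.94, above the array medians on every array. The r with the myeloid content was 0.92 for Cd28 and 0.22 for Cd4.

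B cell markers (median -0.03, 4 of 7 lower, with Cd22 at -0.43 and Cd79a at 0.18) and neutrophil markers (median -0.08, 5 of 8 lower, with Cxcr2 at -0.21 and Mpo at -0.16) also had mean list levels below the array medians on every array. The same held for mast cell and eosinophil markers, with a median of -0.06, Ccr3 at -1.09 (SE 0.34) and Tpsb2 at 0.17. The r with the myeloid content was 0.93 for Cd22 and 0.91 for Ccr3, against -0.64 for Cd79a and -0.39 for Tpsb2. Dendritic cell markers, of interest for Itgax, had a median of 0.08 with 3 of 7 lower. Of these, Flt3 (4.76 to 5.00), Xcr1 (4.37 to 4.76), Siglech (4.48 to 5.06) and Batf3 (3.83 to 4.36) read below the array medians on every array. Zbtb46, a factor of classical dendritic cells, had 0.29 (SE 0.11), and Cd209a, a lectin, read 9.73 to 10.33 on the null and 9.77 to 9.81 on the wild-type arrays. The part of each of these cell types in the values of the 6 integrins was not tested.

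Lists of markers of the gland's other cells had medians between -0.27 and 0.22. Myoepithelial markers had a median of 0.07, with 6 of 9 higher and 0 passing. Krt14 was at 0.89 (SE 0.20) and Krt17 at 0.82 (SE 0.23), both keratins of basal epithelium. On the wild-type arrays Krt14 read 4.93, 5.23 and 5.52 and Krt17 4.71, 4.77 and 5.18, near or below the array medians. On the null arrays Krt14 read 6.35, 6.21 and 5.78 and Krt17 5.79, 6.10 and 5.24. Fibroblast markers had a median of 0.05 with 5 of 10 higher, among them Col1a2 at 0.51 and Col3a1 at 1.03. The other 5 were lower, among them Lum at -1.05 (SE 0.99) and Dcn at -0.55 (SE 0.32). Luminal epithelial markers had a median of 0.22, with Cldn4 at 0.67 and Krt8 at 0.35. Endothelial markers had one of -0.27 with 5 of 8 lower and 3 higher. Kdr was at -0.55, Pecam1 at -0.38 and Tek at 0.43, and their r with the myeloid content was 0.91, 0.68 and -0.62. None of these genes passed an adjusted p of 0.05.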

How the data were processed

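RNA of 6 cultures (150 ng each, per the labels) was labelled with biotin and hybridised. The authors deposited log2 signals per probe set. RMA, which corrects background, equalises array distributions and summarises probes, and Partek are named in the submitters' processing notes. Their versions and settings are not stated there, and no build is. Values ran from 1.83 to 14.2, the range of log2 signals.

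Of 41345 probe sets, 23521 had exactly 1 symbol in the platform annotation, and the probe set of highest mean was kept per gene. TSP1 null minus wild type was tested with limma 3.58.1 (lmFit, eBayes, R 4.3.3) on 22180 genes without an intensity filter, adjusted by Benjamini-Hochberg over all of them, at a threshold of 0.05. The limma fit on the groups was tested on simulated data with independent noise per gene, which lacks the array pattern shared by many genes here. The correlations and the fits with an array left out were not simulated. Correlations used exact permutation over the 6 arrays, two-sided, with scipy 1.17.1. Figures used matplotlib 3.10.9. Promoters came from RefSeq (GRCm38.p6).

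The main fit did not pair arrays by replicate number. Deviations of same-numbered arrays correlated at -0.14, 0.18 and -0.16, and those of differently numbered arrays at -0.18 to 0.26. With 3 arrays per group these values cannot decide whether the numbers pair the arrays. The members and lists were chosen with earlier results of these data known. Named were all members, their partners, up to 3 genes of smallest p per pathway list and 2 per cell type list, and the 3 genes most like each member that spanned 1 log2 unit or more. Fermt3, Runx1, Vcam1, Icam1, Madcam1, Skap2, Itga6, Tek, Acta2, Trp63, the Cd3 genes and genes of the closing section were chosen with their values in view. So were Lum, Dcn, Flt3, Xcr1, Siglech and Batf3. Alternatives were other normalization, probe set rules, priors, array weights, a replicate block, myeloid or pan-leukocyte content as a covariate, and leaving out each array. The covariate with an array left out was added after seeing the data.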

Additional observations from a re-analysis of the deposited data

How the results depend on the processing

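Over 101 alternative fits of the 6 differences (17 settings, 0 adjusted p under 0.05), Itga4 and Itgal kept their direction in all 17. The ordinary model, the other prior, the replicate block and the filter on dim genes cannot change these differences, only their SE and p. Nor can the probe set rules, as each member has 1 probe set. The kept direction therefore counts only for the other settings. With the myeloid content as a covariate the direction turned for Itgam (0.26), Itgax (0.83), Itgb2 (0.15) and Itgb7 (-0.04), and with the pan-leukocyte content it did so at 0.26, 0.83, 0.14 and -0.041. Leaving out each array in turn gave -1.76 to -1.04 for Itga4, -2.10 to -0.97 for Itgal, -1.97 to -0.58 for Itgam, -0.55 to 0.24 for Itgax (0.044 without the second wild-type array), -2.35 to -0.83 for Itgb2 and 0.00055 to 0.072 for Itgb7. Itgb7 was left out by the filter on dim genes. The count of genes called ran from 0 to 34 (34 without the second null and 1 without the first wild-type array), with none of the 6 among them, and was 0 in an ordinary linear model. With the covariate and each array left out the ranges were -0.68 to -0.33 for Itga4, -1.32 to 0.40 for Itgal (0.16 without the second null array), -0.0012 to 0.36 for Itgam, 0.58 to 1.08 for Itgax, -0.05 to 0.31 for Itgb2 and -0.067 to 0.024 for Itgb7. The difference in myeloid content ran from -1.92 to -0.74.

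The r with myeloid content ran from 0.96 to 0.98 for Itga4, 0.80 to 0.91 for Itgal, 0.95 to 1.00 for Itgam, 0.46 to 0.91 for Itgax, 0.99 to 1.00 for Itgb2 and -0.99 to -0.54 for Itgb7 with 1 array left out, and adjusted exact permutation p for Itgal and Itgb7 rose above 0.05 in 4 and 5 of these 6 fits on fewer arrays. With the median of the markers in place of the mean, Itgax had an r of 0.79 (exact permutation, adjusted p = 0.0486). Without the 2 farthest arrays it was 0.48 (0.46 without the third null array alone) and Itgb7 was at -0.59. The cause of these changes was not tested. Whether the replicate numbers pair the arrays is unknown here. The numbers are the same in both groups, so a replicate block cannot move the differences, only their SE and p. With it the differences were -1.42 (SE 0.36) for Itga4, -1.38 (SE 0.52) for Itgal and -1.34 (SE 0.59) for Itgam. They were -0.17 (SE 0.33) for Itgax, -1.65 (SE 0.62) for Itgb2 and 0.031 (SE 0.12) for Itgb7, and 0 genes were called. Signals of Itgb7 and the lowest of Itgax were near the array medians, and no measure of background was used here.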

Other observations

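Myeloid markers themselves differed in how the first wild-type array stood to the other two, the array on which Itgal and Itgax were low. The genes named here were picked after their values were seen, and no test was made. Most of the 20 markers were lower on that array than on the other wild-type arrays. The myeloid content was 0.19 there, against 0.90 and 1.03. Csf1r, the receptor for the growth factor that keeps macrophages alive, read 9.19, 10.77 and 10.92 on the wild-type arrays, and Clec7a, the beta-glucan receptor dectin-1, read 7.11, 8.59 and 8.98, so both were low on the first, as Itgal was. Mrc1, the mannose receptor of tissue macrophages, read 11.56, 10.97 and 10.97 and was highest on that array. Ms4a7 read 10.24, 10.48 and 10.11 there. Cd163, a scavenger receptor of tissue macrophages, read 4.42, 4.12 and 4.32 on the wild-type arrays. It read 4.02 to 4.42 on all arrays, below the array medians.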
